A study of Mus musculus with 12 samples.

Results

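Chemokines and their receptors were examined in MLO-Y4 cells, a mouse osteocyte-like line, after culture in the bore of a superconducting magnet whose strong field has a steep gradient (LG-HMF). The members are all genes of the array whose platform symbol begins with Ccl, Cxcl, Ccr or Cxcr and a number, begins with Cx3c, or is Xcl1 or Xcr1. This rule gave 52 of the 19938 genes compared, of which 34 are ligands and 18 are receptors. It uses symbols only, and no measured value. Each gene is represented by 1 transcript cluster, a group of probes that the array reads as 1 unit, with a single symbol and, where several exist, the highest mean over the 12 arrays.

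RNA came from 4 groups with 3 Affymetrix arrays each. Cells of the μ-g, 1-g and 2-g groups were kept for 48 h at different positions in the bore of the magnet, where the magnetic force on the sample opposes gravity, is absent, or adds to it. The μ-g and 2-g positions share a field strength, and the 1-g position lies in the stronger field at the centre. The control group was kept for the same time in an incubator outside the magnet, and is the reference of set 1 (μ-g), set 2 (2-g) and set 3 (1-g). A difference in these sets covers the field, the bore and the apparent gravity together, and these cannot be told apart there. Set 4 compares μ-g v.s. 2-g cells. The comparisons of μ-g and of 2-g with 1-g cells were added. All 4 groups are the same clonal line with no agent added, which was derived from the long bone of a mouse that carried a T antigen transgene under the osteocalcin promoter. The labels name the samples as biological replicates 1 to 3. Nothing read here says that they were cultured apart, so p-values measure only the spread between these samples, which may be technical.

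Values are log2 expression after RMA (robust multi-array average) normalisation. Array medians ran from 7.04 to 7.12 and correlations between arrays of a group from 0.997 to 0.998, and no array stood apart. Of 14 osteocyte and osteoblast markers, 11 were measured, and 4 (Pdpn, Gja1, Alpl and Col1a1) lay above the median of all gene means, 7.50. Dmp1, Phex, Mepe, Sost and Fgf23, which define mature osteocytes, did not. None of the 6 T cell, 3 B cell or 6 endothelial markers measured lay above that level. Of 8 macrophage markers 2 did (Cd68 and Cd14), and of 7 neutrophil markers 1 did (S100a8).

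Chemokines are small secreted proteins that bind to matrix and cell surfaces and guide leukocytes along a gradient. Their receptors are G protein-coupled receptors, which activate Gi proteins and are then silenced by GRK kinases and arrestins. Ligands with a glutamate-leucine-arginine motif before the CXC cysteines attract neutrophils through Cxcr2, the interferon-induced ligands of Cxcr3 attract activated T cells, and many CC ligands attract monocytes. In bone, Ccl3 (MIP-1α) is also known to promote the formation of osteoclasts, and Cxcl12 to retain haematopoietic cells in marrow.

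Sequence is shown for the promoters of the 4 members past the adjusted threshold in any comparison fitted without a block on the replicate number. It is also shown for Cxcl2, the chromosomal neighbour of Cxcl1, which was added after its values were seen. Each line holds the 250 bases before the transcription start on the gene's strand, from RefSeq on GRCm38.p6, where 38 of the 52 members were matched. The regions are chr11:83649379-83649628 on the minus strand, chr5:92328080-92328329 on the minus strand, chr5:90890995-90891244, chr5:90903649-90903898 and chr5:90785851-90786100 on the plus strand. Capitals mark matches to the consensus of NF-kB, a transcription factor that Tnf and Toll-like receptors activate, searched on both strands.
Ccl3: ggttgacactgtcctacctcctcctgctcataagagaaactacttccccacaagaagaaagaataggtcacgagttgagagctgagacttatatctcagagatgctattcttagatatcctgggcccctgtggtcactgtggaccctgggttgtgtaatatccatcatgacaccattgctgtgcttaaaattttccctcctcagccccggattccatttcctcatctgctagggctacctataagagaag
Cxcl9: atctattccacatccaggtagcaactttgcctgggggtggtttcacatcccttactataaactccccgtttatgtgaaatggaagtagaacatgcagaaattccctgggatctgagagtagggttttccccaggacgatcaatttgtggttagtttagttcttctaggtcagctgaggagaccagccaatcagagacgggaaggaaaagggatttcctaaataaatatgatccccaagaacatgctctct
Cxcl1: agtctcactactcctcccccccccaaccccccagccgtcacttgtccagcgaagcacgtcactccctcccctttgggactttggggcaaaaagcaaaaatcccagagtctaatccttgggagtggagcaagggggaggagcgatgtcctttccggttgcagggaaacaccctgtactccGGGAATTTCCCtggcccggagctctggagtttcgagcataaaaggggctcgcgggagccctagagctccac
Cxcl2: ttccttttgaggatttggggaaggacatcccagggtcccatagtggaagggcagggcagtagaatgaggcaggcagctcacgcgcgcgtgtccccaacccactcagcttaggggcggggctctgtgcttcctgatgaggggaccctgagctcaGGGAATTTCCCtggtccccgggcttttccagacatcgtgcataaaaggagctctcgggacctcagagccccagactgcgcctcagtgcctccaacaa
Cxcl3: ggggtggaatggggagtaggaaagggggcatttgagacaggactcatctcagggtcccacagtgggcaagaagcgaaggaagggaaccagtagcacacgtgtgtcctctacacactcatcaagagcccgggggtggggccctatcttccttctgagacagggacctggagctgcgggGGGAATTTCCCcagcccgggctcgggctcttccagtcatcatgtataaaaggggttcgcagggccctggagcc
The promoters of Cxcl1, Cxcl2 and Cxcl3 held the same 11 letters, GGGAATTTCCC, in which a match on each strand overlaps the other, with the first base at position -71, -97 and -73 from the start. The windows of Ccl3 and Cxcl9 held no match to this consensus, to the AP-1 motif TGANTCA or to the GAS motif TTCNNNGAA, which STAT factors bind, and this says only that these letters are not in these windows. Of 32851 RefSeq promoters of this length, 7.25% held the NF-kB consensus, 6.75% the AP-1 motif and 7.02% the GAS motif, and of the 38 matched members 10, 4 and 4 did. The percentages count promoters, while a member counts once if any of its promoters holds the motif, so they are not like for like. Cxcl10, Ccl9 and Ccr3 held both NF-kB and AP-1 matches. A match is a description of the letters and not of a binding site in these cells.

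Most members moved little in any comparison. What passed in the fit of all 12 arrays without a block on the replicate number was confined to 4 ligands: Ccl3, Cxcl1, Cxcl3 and Cxcl9. The blocked fit, given below, called further members. By limma with Benjamini-Hochberg adjustment over all genes, a threshold of adjusted p under 0.05 here, 1 member fell in set 1 (Cxcl3), where 0.823% of all genes were called. In set 2, 2 members fell (Ccl3 and Cxcl1), or 3.85% of members beside 3.11% of all genes. Counted in the same direction, 0.386% of all genes fell in set 1 and 1.43% in set 2. In set 3 no member passed with limma, where 0.321% of all genes did, 6 members had an unadjusted P under 0.05 (10.8% of all genes) and a fit blocked on the replicate number called 1. In set 4, 2 members rose (Ccl3 and Cxcl9), beside 2.88% of all genes called and 1.38% that rose. No member and no gene (0.0%) passed with limma in μ-g v.s. 1-g, where 4 members had an unadjusted P under 0.05 (2.31% of all genes) and the blocked fit called 0. In 2-g v.s. 1-g, 1 member fell (Ccl3), beside 2.26% of all genes called and 1.0% that fell. With so few calls these shares are near the background, and the counts show nothing particular to the family. The median log2 fold change of the 52 members was 0.00 in set 1, -0.03 in set 2, 0.00 in set 3 and 0.03 in set 4, beside 0.02, 0.00, 0.02 and 0.03 over all genes.

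The blocked fit called more members and more genes. In set 2 it called 6 of 52 members (Ccl3, Cxcl1, Cxcl2, Cxcl3, Cxcl10 and Cx3cl1), where 9.38% of all genes passed. In 2-g v.s. 1-g it called 6 (Ccl3, Ccl7, Cxcl1, Cxcl2, Cxcl9 and Cxcl10), where 7.57% passed, in set 4 it called 3, where 9.18% passed, in set 3 it called 1, where 1.77% passed, and in set 1 it called 4, where 4.7% passed. The F test called 1 member, where 3.15% of all genes passed, and 7 with the block, where 11.7% passed. The methods of the study set a limit of 1.5-fold with P under 0.05, without saying whether P was adjusted. Read here as a fold change above 1.5 with unadjusted P, it passed no member in set 1 (0.206% of all genes). The same held in set 3 (0.14%) and μ-g v.s. 1-g (0.0%). In set 2, 1 passed (Ccl3, 0.466%), and 2, Ccl3 and Cxcl9, passed in set 4 (0.707%) and in 2-g v.s. 1-g (0.652%).

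**Figure D1:**
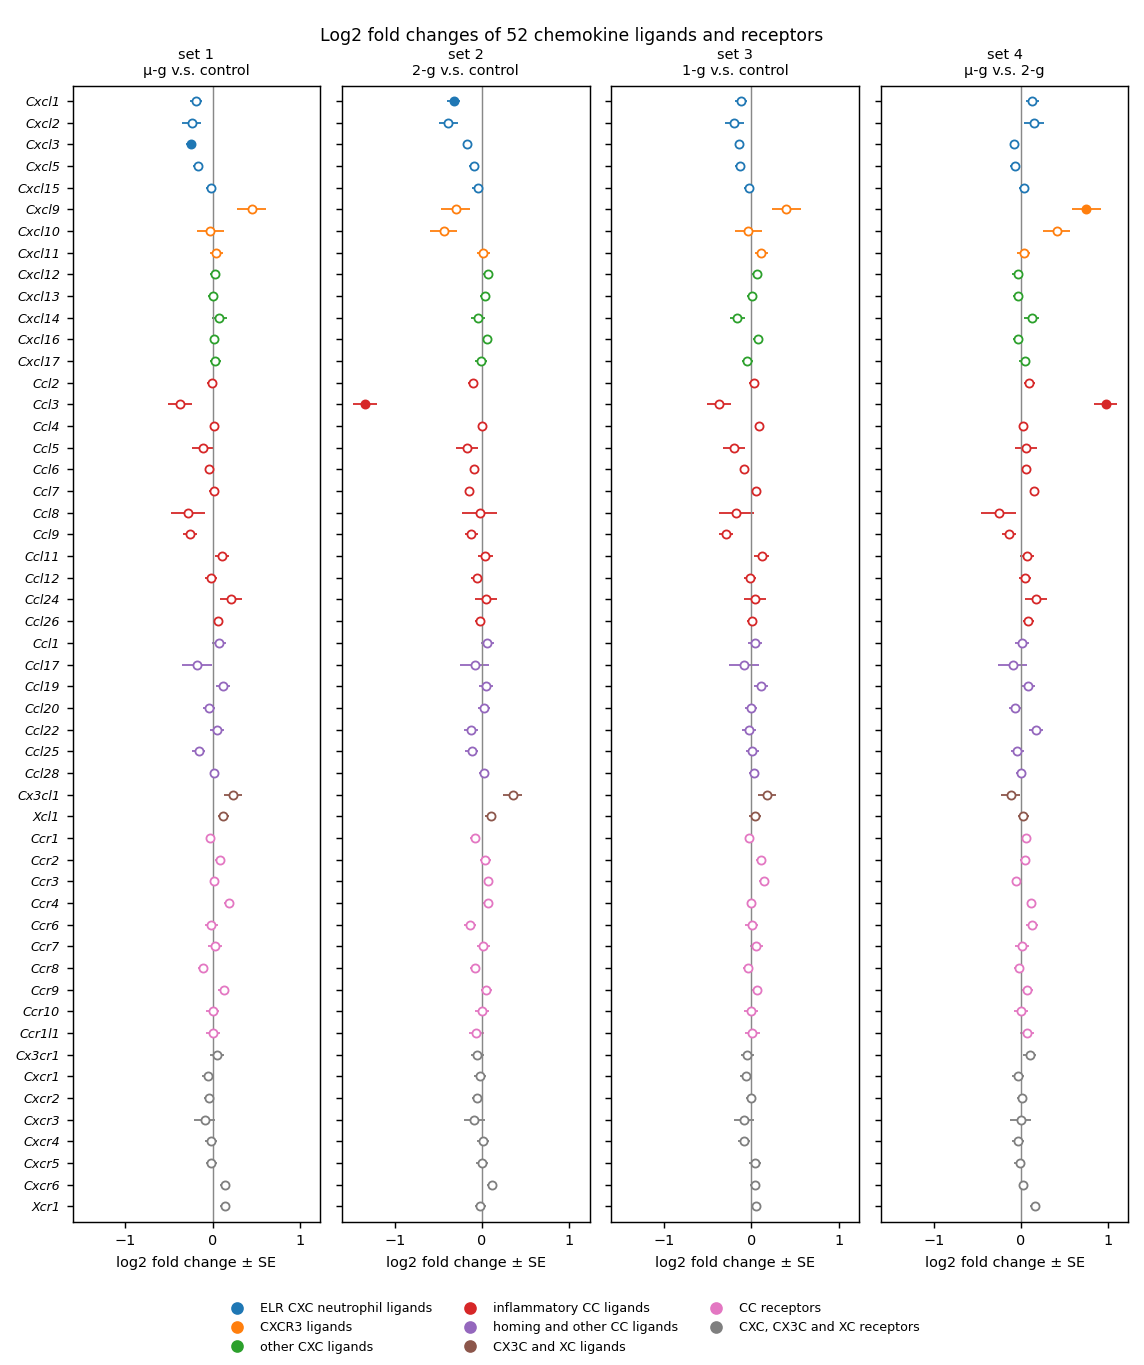
Log2 fold changes (x axis) of the 52 members (rows, coloured by role) in the panels of sets 1 to 4, with bars of 1 standard error and filled circles for an adjusted p under 0.05 (limma). Filled circles are Cxcl3 in set 1, Cxcl1 and Ccl3 in set 2, and Cxcl9 and Ccl3 in set 4, and the receptors at the bottom lie within 0.19 of 0.

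Members differed by level. A total of 14 lay above the median of gene means, all of them ligands (Ccl2, Ccl3, Ccl5, Ccl7, Ccl9, Ccl17, Ccl25, Cxcl1, Cxcl2, Cxcl3, Cxcl5, Cxcl9, Cxcl10 and Cx3cl1), and 0 of 18 receptors did. In set 2, 13 of these 14 had a log2 fold change below 0, with a median of -0.16, and in set 1, 11 of 14 did, also with a median of -0.16, against 0.00 and 0.02 over all genes. Over all genes above the median of gene means, the median log2 fold change was 0.00 in set 2 and 0.04 in set 1. The exception in set 2 was Cx3cl1. Of the 38 other members, 20 were below 0 in set 2 and 15 in set 1. The 14 were split off by their mean over all arrays, sets 1 and 2 share the control arrays, and no test was made of the group.

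Ccl3 changed most, and without the block it was the only member past the threshold in the F test over the 4 groups (adjusted p = 0.00101). Its log2 expression was 10.97, 10.88 and 10.91 on the μ-g arrays, 10.86, 10.95 and 10.95 on the 1-g arrays, 10.16, 9.59 and 10.11 on the 2-g arrays, and 11.17, 11.19 and 11.53 on the control arrays. All 3 2-g arrays were below the 9 others, the control arrays were the 3 highest, and the μ-g and 1-g arrays overlapped in between. In set 2 Ccl3 fell by 1.34 (SE 0.13, limma adjusted p = 0.00161), a fold of 0.394, the largest log2 fold change of any member in any comparison. It was 0.97 higher in μ-g than in 2-g cells (SE 0.13, limma adjusted p = 0.00272) and 0.97 lower in 2-g than in 1-g cells, a log2 fold change of -0.97 (limma adjusted p = 0.00304). Against control, both other magnet groups had a log2 fold change of -0.37 (SE 0.13), which did not pass (limma adjusted p = 0.221 for μ-g and 0.314 for 1-g), although neither group overlapped control. Leaving out each array in turn kept the 3 calls of Ccl3, with log2 fold changes in set 2 from -1.45 to -1.16.

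The other inflammatory CC ligands, which attract monocytes, eosinophils and T cells, showed no fall of this size. Of the 12, only Ccl3 was called in set 2 and set 4, and 10 had a log2 fold change below 0 in set 2, with a median of -0.08 (9 after centring arrays on their medians or quantile normalisation, where Ccl4 lay above 0). Ccl2 (MCP-1), a main monocyte attractant, averaged 13.55 ± 0.08 in μ-g, 13.59 ± 0.06 in 1-g, 13.45 ± 0.08 in 2-g and 13.56 ± 0.06 in control cells (SD, n = 3 each). Ccl5 (RANTES) had a log2 fold change of -0.17 (SE 0.13) in set 2. Neither passed in any comparison.

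Ccl7, a monocyte attractant encoded next to Ccl2, averaged 13.67 ± 0.06 in μ-g, 13.71 ± 0.02 in 1-g, 13.52 ± 0.04 in 2-g and 13.66 ± 0.08 in control cells (SD, n = 3 each). The 2-g arrays lay below all others. Its log2 fold change was -0.14 (SE 0.05) in set 2, 0.16 in set 4 and -0.19 in 2-g v.s. 1-g, which did not pass (limma adjusted p = 0.169, 0.144 and 0.0819), while the blocked fit called the last (adjusted p = 0.0305). Ccl9, a mouse ligand of Ccr1, differed in another way: it averaged 9.65 ± 0.12 in μ-g, 9.61 ± 0.14 in 1-g, 9.79 ± 0.04 in 2-g and 9.91 ± 0.09 in control cells. The μ-g and 1-g arrays lay below the control arrays, and the 2-g arrays overlapped neither 1-g nor μ-g. Its log2 fold change was -0.26 (SE 0.08, limma adjusted p = 0.154) in set 1 and -0.30 (SE 0.08, limma adjusted p = 0.160) in set 3, where the blocked fit gave adjusted p = 0.0256. The remaining members of this role, Ccl4, Ccl6, Ccl8, Ccl11, Ccl12, Ccl24 and Ccl26, had log2 fold changes from -0.09 to 0.04 in set 2.

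The 5 neutrophil-attracting CXC ligands among the members had lower means in every magnet group than in control cells. In sets 1 to 3, which share the control arrays, all 5 had a log2 fold change below 0, with medians of -0.19, -0.17 and -0.14, and this held after centring and after quantile normalisation. Without control replicate 2, Cxcl15 lay above 0 in sets 1 and 3, as it did in set 3 without 1-g replicate 2, so that 4 of the 5 were below 0. In set 1 Cxcl3 was called and in set 2 Cxcl1. Ppbp, a ligand of the same kind, is outside the symbol rule, and its 2-g mean was not below control. It averaged 9.39 ± 0.09 in μ-g, 9.43 ± 0.19 in 1-g, 9.75 ± 0.32 in 2-g and 9.74 ± 0.03 in control cells (SD).

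Cxcl1 (KC) measured 12.41, 12.33 and 12.30 on the μ-g arrays, 12.54, 12.32 and 12.40 on the 1-g arrays, 12.32, 12.11 and 12.20 on the 2-g arrays, and 12.62, 12.47 and 12.53 on the control arrays. The 2-g and μ-g arrays did not overlap control, and 1-g did. In set 2 it fell by 0.33 (SE 0.07, limma adjusted p = 0.0306). This call was lost without 2-g replicate 2 (adjusted p = 0.101), without 2-g replicate 3 (0.114), without control replicate 1 (0.109) or without control replicate 3 (0.0983), and also when only the 6 arrays of the 2 groups were fitted or arrays were quantile normalised. With the block it passed (adjusted p = 0.00204). In set 1 its log2 fold change was -0.19 (SE 0.07, limma adjusted p = 0.232), and in 2-g v.s. 1-g it was -0.21 (limma adjusted p = 0.169, and 0.0167 with the block).

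Cxcl3 measured 12.06, 12.08 and 12.07 on the μ-g arrays, 12.21, 12.13 and 12.21 on the 1-g arrays, 12.15, 12.10 and 12.20 on the 2-g arrays, and 12.28, 12.28 and 12.41 on the control arrays. All 9 magnet arrays lay below the 3 control arrays, and the μ-g arrays were the 3 lowest. In set 1 it fell by 0.25 (SE 0.05, limma adjusted p = 0.0440). The call rests on a narrow margin, since it was lost without any 1 of the 12 arrays, with adjusted p from 0.0511 without μ-g replicate 2 to 0.192 without μ-g replicate 1. In set 2 its log2 fold change was -0.17 (SE 0.05, limma adjusted p = 0.0945, and 0.0365 with the block) and in set 3 it was -0.14 (limma adjusted p = 0.312).

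Cxcl2 (MIP-2) measured 11.39, 11.10 and 11.17 on the μ-g arrays, 11.34, 11.13 and 11.32 on the 1-g arrays, 11.18, 10.87 and 11.16 on the 2-g arrays, and 11.60, 11.27 and 11.51 on the control arrays. Within each group replicate 2 was the lowest, and the 2-g arrays did not overlap control. Its log2 fold change in set 2 was -0.39 (SE 0.11, limma adjusted p = 0.0824, and 0.00195 with the block), and in set 1 it was -0.24 (limma adjusted p = 0.356). In 2-g v.s. 1-g it was -0.19 (limma adjusted p = 0.459, and 0.0447 with the block). Cxcl5 (LIX) averaged 12.33 ± 0.03 in μ-g, 12.36 ± 0.06 in 1-g, 12.40 ± 0.11 in 2-g and 12.50 ± 0.02 in control cells (SD, n = 3 each), with log2 fold changes of -0.17 in set 1 and -0.14 in set 3 that did not pass (limma adjusted p = 0.198 and 0.408). Cxcl15, the lung-expressed member of this group, had log2 fold changes of -0.02, -0.05 and -0.03 in sets 1 to 3.

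Of the ligands of Cxcr3, Cxcl9 and Cxcl10 had their lowest mean in 2-g cells, and Cxcl9 was called in set 4. Cxcl9 (Mig) measured 9.62, 9.92 and 9.57 on the μ-g arrays, 9.33, 9.78 and 9.84 on the 1-g arrays, 8.78, 8.94 and 9.14 on the 2-g arrays, and 9.11, 9.06 and 9.59 on the control arrays. The 2-g arrays lay below all μ-g and 1-g arrays and overlapped control. In set 4 Cxcl9 rose by 0.75 (SE 0.17, limma adjusted p = 0.0340), a fold of 1.68. The call was lost without μ-g replicate 1 (adjusted p = 0.0909), 2 (0.0772) or 3 (0.0695) and without 2-g replicate 1 (0.0921), 2 (0.0998) or 3 (0.0577), and with the block it passed (adjusted p = 0.00610).

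Against 1-g cells, Cxcl9 in 2-g cells had a log2 fold change of -0.70 (SE 0.17), at the edge of the threshold (limma adjusted p = 0.0518, and 0.00985 with the block). Against control its log2 fold change was 0.45 in set 1 and 0.40 in set 3 (SE 0.17 each), and -0.30 in set 2, none of which passed (limma adjusted p = 0.236 and 0.413 for the first 2).

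Cxcl10 (IP-10), encoded beside Cxcl9, measured 11.33, 11.82 and 11.37 on the μ-g arrays, 11.20, 11.64 and 11.65 on the 1-g arrays, 10.97, 11.11 and 11.20 on the 2-g arrays, and 11.29, 11.58 and 11.72 on the control arrays. The 2-g arrays were below the arrays of every other group, but the highest 2-g and the lowest 1-g array both round to 11.20. Its log2 fold change was -0.44 (SE 0.15) in set 2 and 0.41 (SE 0.15) in set 4. Neither passed (limma adjusted p = 0.158 and 0.193), and both did with the block (adjusted p = 0.0205 and 0.0275). In 2-g v.s. 1-g its log2 fold change was -0.40 (limma adjusted p = 0.225, and 0.0333 with the block). Cxcl11, the third ligand of this receptor, was below the median of gene means and had log2 fold changes of 0.01 in set 2 and 0.03 in set 4.

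**Figure D2:**
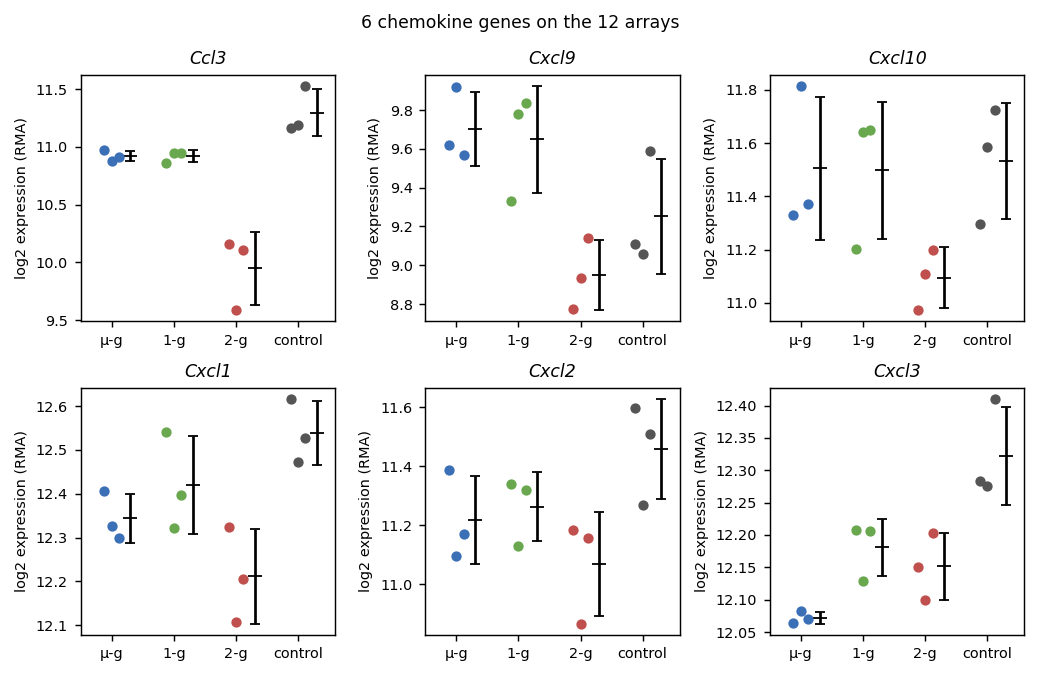
Log2 expression (y axis) of Ccl3, Cxcl9, Cxcl10, Cxcl1, Cxcl2 and Cxcl3 on each array of the μ-g, 1-g, 2-g and control groups (points, replicates 1 to 3 from left), with the group mean and SD beside them (n = 3). Ccl3 lies between 9.59 and 10.16 on the 2-g arrays, below the 9 others, and Cxcl3 reaches 12.28 on the control arrays only.

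Cx3cl1 (fractalkine), a membrane-bound chemokine that is shed by Adam10 and Adam17, was the 1 abundant member with a positive log2 fold change in set 2. It averaged 11.28 ± 0.24 in μ-g, 11.23 ± 0.10 in 1-g, 11.40 ± 0.10 in 2-g and 11.05 ± 0.11 in control cells (SD, n = 3 each). The 2-g arrays lay above the control arrays. Its log2 fold change in set 2 was 0.35 (SE 0.11, limma adjusted p = 0.111, and 0.0427 with the block). Xcl1 (lymphotactin) was below the median of gene means and had a log2 fold change of 0.10 in set 2.

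The homing CC ligands and the remaining CXC ligands had no call in any comparison. Ccl17, a ligand of Ccr4, had a log2 fold change of -0.08 (SE 0.17) in set 2, and Ccl22, the other ligand of Ccr4, had -0.13 in set 2 and 0.18 (SE 0.08, limma adjusted p = 0.282) in set 4. Ccl25, which draws T cells to the gut and thymus, had a log2 fold change of -0.12 in set 2, and those of Ccl1, Ccl19, Ccl20 and Ccl28 ran from 0.02 to 0.06. Cxcl12, the ligand of Cxcr4, averaged 6.01 ± 0.03 in μ-g, 6.04 ± 0.02 in 1-g, 6.05 ± 0.05 in 2-g and 5.98 ± 0.12 in control cells, with a log2 fold change of 0.07 in set 2. The log2 fold changes of Cxcl13, Cxcl14, Cxcl16 and Cxcl17 ran from -0.05 to 0.05 in that set.

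Genes that lie side by side on a chromosome did not all behave alike. On chromosome 11, in the order Ccl5, Ccl9, Ccl6, Ccl3 and Ccl4 of the RefSeq annotation, the log2 fold change in set 2 was -1.34 for Ccl3 but -0.09 for Ccl6 on one side and 0.00 for Ccl4 on the other. Ccl3 and Ccl4 are close relatives that activated macrophages secrete together, and the Ccl4 cluster measured 6.17 ± 0.03 in μ-g, 6.23 ± 0.07 in 1-g, 6.15 ± 0.02 in 2-g and 6.15 ± 0.04 in control cells, below the median of gene means. On chromosome 5, for the members in the order Cxcl5, Cxcl3, Cxcl15, Cxcl1 and Cxcl2, the log2 fold changes in set 2 were -0.10, -0.17, -0.05, -0.33 and -0.39. Ppbp, also on chromosome 5, is outside the rule and is left out of this order. There the 4 members above the median of gene means had log2 fold changes of 1 sign, and Cxcl15 between them did not pass that level.

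**Figure D3:**
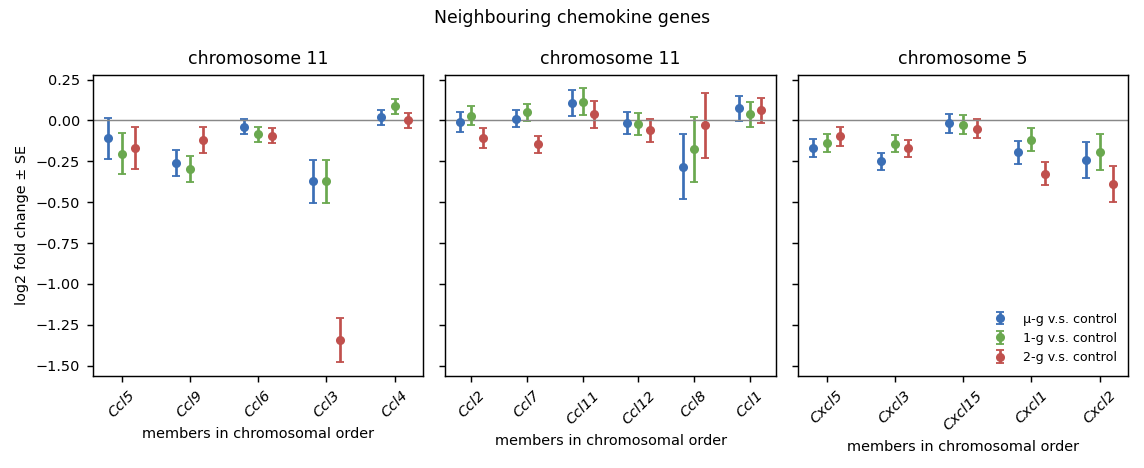
Log2 fold changes (y axis, with bars of 1 standard error) against control in μ-g, 1-g and 2-g cells for members of 3 groups of neighbouring genes, in their chromosomal order (x axis, not to scale). Ccl3 at -1.34 in 2-g cells stands apart from Ccl6 and Ccl4 beside it, and the chromosome 5 members lie at or below 0 in each magnet group.

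No receptor passed in any of the 6 comparisons, with or without the block. All 18 lay below the median of gene means, with group means from 4.85 for Ccr2, the monocyte receptor of Ccl2, to 7.14 for Ccr10. The 95% intervals of their log2 fold changes ran from -0.35 to 0.31 over set 1 to set 4, so no interval reached a doubling on the scale of the array, which is compressed for transcripts near background. Ccr4 averaged 5.83 ± 0.06 in μ-g, 5.64 ± 0.07 in 1-g, 5.71 ± 0.02 in 2-g and 5.64 ± 0.07 in control cells (SD, n = 3 each), with log2 fold changes of 0.19 (SE 0.05, limma adjusted p = 0.134) in set 1 and 0.12 in set 4. Xcr1, the receptor of Xcl1, had log2 fold changes of 0.15 in set 1 and 0.16 in set 4 (SE 0.06 each, limma adjusted p = 0.272 and 0.165). Cxcr6, the receptor of Cxcl16, had log2 fold changes of 0.14 in set 1 (SE 0.05, limma adjusted p = 0.253) and 0.11 in set 2, and Ccr3, the eotaxin receptor, had one of 0.14 in set 3 (SE 0.05, limma adjusted p = 0.350). Ccr6, the receptor of Ccl20, had a log2 fold change of -0.14 in set 2. Ccr1, Ccr1l1, Ccr7, Ccr8, Ccr9, Cx3cr1, Cxcr1, Cxcr2, Cxcr3, Cxcr4 and Cxcr5 had no unadjusted P under 0.05 in set 1 to set 4.

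Of 5 atypical chemokine receptors, which bind chemokines without G protein signalling, Ackr3, the scavenger of Cxcl12, was the 1 called without the block. It averaged 9.37 ± 0.15 in μ-g, 9.33 ± 0.17 in 1-g, 9.96 ± 0.16 in 2-g and 9.47 ± 0.23 in control cells (SD, n = 3 each). In set 4 it fell by 0.59 (SE 0.13, limma adjusted p = 0.0300) and it was 0.64 higher in 2-g than in 1-g cells. The set 4 call was lost without μ-g replicate 1 or 3 or 2-g replicate 2 or 3, with adjusted p up to 0.133. In set 2 its log2 fold change was 0.49, which passed only with the block.

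Of 24 measured genes of receptor signalling and desensitisation, 3 rose in set 2 and 2 fell in set 4, or 12.5% and 8.33% beside 3.11% and 2.88% of all genes called. Counted in the same direction, 335 of the 19938 genes rose in set 2 and 298 fell in set 4. With the block 3 of the 24 rose in set 2 and 3 fell in set 4, where 9.38% and 9.18% of all genes passed. The list was drawn up with earlier results of these data known, so these shares are no test of it. Arrb1 (β-arrestin 1), which uncouples activated receptors, averaged 8.87 ± 0.05 in μ-g, 8.95 ± 0.10 in 1-g, 10.72 ± 0.17 in 2-g and 9.47 ± 0.40 in control cells (SD, n = 3 each). The 2-g arrays were the 3 highest. It rose by 1.25 in set 2 (SE 0.16, limma adjusted p = 0.00306) and fell by 1.85 in set 4, and both calls held without each array. Grk5, which phosphorylates activated receptors, rose by 0.39 in set 2 and fell by 0.31 in set 4, and Plcb3, a phospholipase downstream of the receptors, rose by 0.30 in set 2. Of these calls, Grk5 in set 2 was lost without 2-g replicate 3 or control replicate 1 or 3, Grk5 in set 4 without any 1 of the arrays other than those of 1-g, and Plcb3 without 2-g replicate 2 or 3 or control replicate 1 or 3, with adjusted p up to 0.0794, 0.152 and 0.0895.

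Of 18 measured inducers and regulators of chemokine transcription, 3 fell in set 2 (Tnf, Il6 and Tlr2). This is 16.7% beside 3.11% of all genes called and 1.43% that fell. This list too was drawn up with earlier results of these data known, so the share is no test of it. In set 4 Tnf and Tlr2 rose and Nfkbiz, a nuclear NF-kB cofactor, fell by 0.22, where 2.88% of all genes were called. With the block 5 of the 18 were called in set 2, where 4 fell, Tnfaip3 rose and 9.38% of all genes passed. In set 4 the blocked fit called 6, where 5 rose, 1 fell and 9.18% of all genes passed. Tnf measured 9.33, 9.28 and 9.24 on the μ-g arrays, 9.36, 9.38 and 9.16 on the 1-g arrays, 8.81, 8.74 and 8.71 on the 2-g arrays, and 9.57, 9.38 and 9.28 on the control arrays, so that the 2-g arrays lay below the 9 others, as for Ccl3. It fell by 0.66 in set 2 (SE 0.08, limma adjusted p = 0.00247) and rose by 0.53 in set 4 (SE 0.08, limma adjusted p = 0.00341), and both calls held without each array. Tlr2, a receptor for bacterial lipoproteins, fell by 0.40 in set 2 and rose by 0.42 in set 4, and Il6 fell by 0.29 in set 2. Tlr2 lost its call in set 2 without 2-g replicate 2 or 3 or control replicate 1 or 3 (adjusted p up to 0.0859) and in set 4 without μ-g replicate 3 or 2-g replicate 2 or 3 (up to 0.0665). Il6 lost it without any 2-g or control array (up to 0.0864) and Nfkbiz without any μ-g or 2-g array (up to 0.128).

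Mif, a cytokine that binds Cxcr2, Cxcr4 and Cd74, was the 1 called without the block among 5 chemokine-like ligands under other names. It averaged 13.14 ± 0.13 in μ-g, 13.26 ± 0.11 in 1-g, 13.62 ± 0.04 in 2-g and 13.50 ± 0.07 in control cells (SD, n = 3 each). It fell by 0.36 in set 1 (SE 0.07, limma adjusted p = 0.0482, lost without any 1 array other than μ-g replicate 2 and 1-g replicate 3, with adjusted p up to 0.209) and by 0.48 in set 4 (SE 0.07, limma adjusted p = 0.00507). It was also called in 2-g v.s. 1-g, where it rose by 0.36. Mif had 3 clusters, and these values are those of the cluster of highest mean only. Of 12 genes of chemokine cleavage and retention on the surface, Mmp9 rose by 0.52 and Mmp2 by 0.20 in set 4, which were lost, with adjusted p up to 0.139 and 0.166, without any 1 array other than 1-g replicate 1 and 2-g replicate 3 for Mmp9 and without any 1 array for Mmp2. Without the block none of the 12 was called in sets 1 to 3. The blocked fit called 5 in set 2 (Mmp9, Adam17, Sdc1, Sdc3 and Sdc4), where 9.38% of all genes passed, and 4 in set 4.

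**Figure D4:**
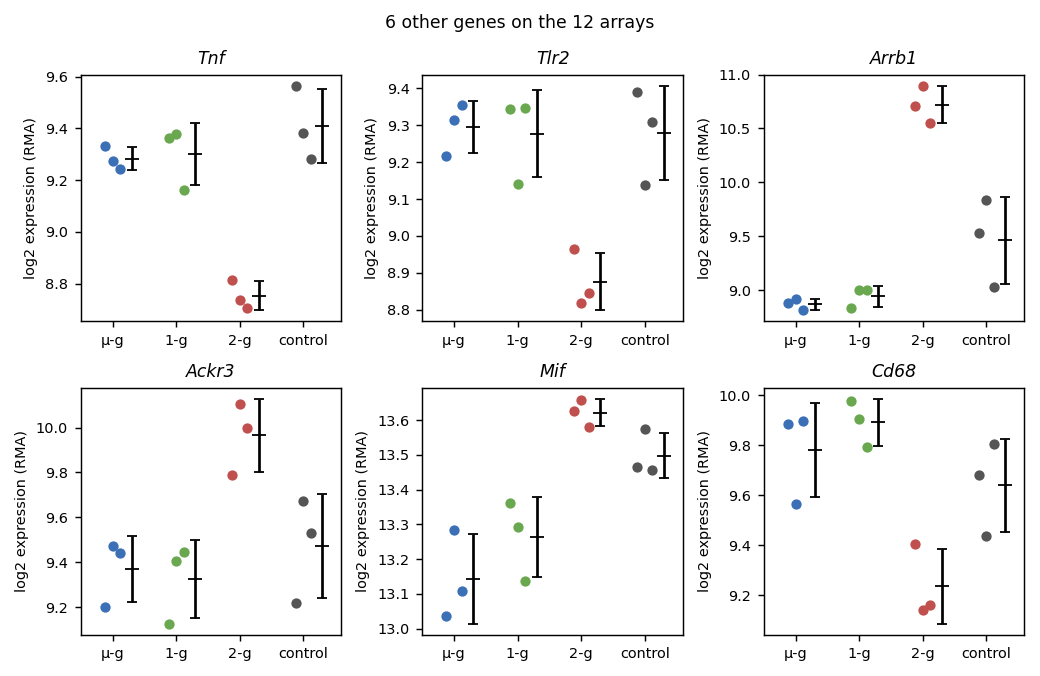
Log2 expression (y axis) of Tnf, Tlr2, Arrb1, Ackr3, Mif and Cd68 on each array of the μ-g, 1-g, 2-g and control groups (points), with the group mean and SD beside them (n = 3). On the 2-g arrays Tnf and Tlr2 are the lowest and Arrb1 and Ackr3 the highest.

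Cd68, a lysosomal protein that marks macrophages, was also lowest in 2-g cells. It averaged 9.78 ± 0.19 in μ-g, 9.89 ± 0.09 in 1-g, 9.24 ± 0.15 in 2-g and 9.64 ± 0.19 in control cells (SD, n = 3 each), rose by 0.55 in set 4 (limma adjusted p = 0.0247) and had a log2 fold change of -0.40 in set 2 (limma adjusted p = 0.0786, and 0.0161 with the block). Its set 4 call was lost without μ-g replicate 1 or 3 or 2-g replicate 2 or 3, with adjusted p up to 0.115. It was the 1 of 8 macrophage markers called without the block. The blocked fit also called Csf1r, which fell in sets 1 and 3. At an unadjusted P under 0.05 (limma), Csf1r was lower in μ-g than in 2-g cells and higher in 2-g than in 1-g cells, opposite to Cd68. The mean level of the macrophage list ran from 7.01 to 7.09 on the μ-g, from 6.96 to 7.10 on the 1-g, from 6.91 to 6.97 on the 2-g and from 6.95 to 7.11 on the control arrays. The neutrophil marker S100a8 fell by 0.59 in set 1 and by 0.64 in set 2, and the other 6 markers of that list were not called. The S100a8 call in set 1 was lost without μ-g replicate 1 or 3, 2-g replicate 3 or any control array (adjusted p up to 0.116) and in set 2 without 2-g replicate 3 (0.0640). Of the 11 measured osteocyte and osteoblast markers, Col1a1 was the 1 called without the block. It rose in set 2 and in 2-g v.s. 1-g, where 3.11% and 2.26% of all genes were called. The part of these markers in the chemokine results was not tested, and in RNA of a whole culture fewer cells of a type and less RNA per cell cannot be told apart.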

How the data were processed

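RNA of 12 MLO-Y4 samples (3 each of μ-g, 1-g, 2-g and control) was measured on whole-transcript Affymetrix arrays. The deposited table holds log2 values of 28856 transcript clusters, which the authors made from the intensities by RMA (no version given), and raw intensities were not used. Clusters were named through the platform table, with symbols updated by gene identifier: 21789 carried 1 symbol, 1621 several and 5446 none, and 83 identifiers were unmatched. The 19938 genes with 1 symbol were compared, with the cluster of highest mean for the 999 that had several.

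A mean per group was fitted with limma 3.58.1 (lmFit and eBayes, R 4.3.3) to all 12 arrays and all clusters, with 8 residual and 3.90 prior degrees of freedom, and p-values were adjusted over the 19938 genes by the Benjamini-Hochberg method. The fit was tested on simulated data with noise drawn independently for each array. Those data held no shared effect of the replicate number, so that test says nothing about such an effect. With 3 arrays a group the number of arrays limits the precision. Members, gene lists, comparisons and promoter motifs were chosen with earlier results of these data known. Every member past the adjusted threshold without the block is given on each array. Further members past an unadjusted P of 0.05 in set 1 to set 4 are given by their mean or log2 fold change. Of each other list at most 4 called genes are given.

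The replicate numbers 1 to 3 recur in each group. Deviations from group means correlated by 0.342 on average between arrays of the same number and by -0.17 between others. The second value is no separate evidence of pairing, since deviations from a group mean cancel within each group. By the rule that each same-numbered pair exceeds 0.1, the numbers pair the samples in all comparisons but set 1, where the lowest pair had 0.0179. This pairing is read from the values, since the labels do not explain the numbers. Alternatives were the block, the 6 arrays of a comparison alone, genes above the median of gene means (7.50), centring arrays on their medians, quantile normalisation, an intensity trend with a robust prior, the mean of all clusters of a gene, a fold change above 1.5 with unadjusted P, and leaving out each array. No column of the deposited table was left unused. Promoters are those of RefSeq, and genes that share clusters are not analysed here by the test.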

Additional observations from a re-analysis of the deposited data

Results flagged for a closer look

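The log2 fold change of Ccl3 against control differed between the magnet positions. Between 2-g and 1-g cells the field strength differs too, and cannot be told apart from the apparent gravity. The difference between the log2 fold changes against control in μ-g and 2-g cells was 0.97. Between those in 2-g and 1-g cells it was -0.97. Both passed the threshold of limma (adjusted p = 0.00272 and 0.00304). All 3 2-g arrays lay below the arrays of both other magnet groups.

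The log2 fold change of Cxcl9 against control was 0.45 in μ-g and -0.30 in 2-g cells. These also differed, by 0.75 (limma adjusted p = 0.0340). Since the control arrays are shared, each of these differences is the direct comparison of the 2 magnet groups. The cause was not tested.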

How the results depend on the processing

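The log2 fold changes of Ccl3 kept their direction and their side of the threshold under every alternative tried, with adjusted p in set 2 from 0.000339 to 0.0319. No called log2 fold change turned its direction. The median of the ELR CXC ligands in set 4 was 0.03 and became -0.01 without 2-g replicate 2, and that of the Cxcr3 ligands in set 1 was 0.04 and became -0.03 without μ-g replicate 2. The counts of called members are small, so 1 gene moves them.

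In set 1 the count of called members was 1 and became 0 with the 6 arrays alone, with centring, with quantile normalisation and with the limit of 1.5-fold, and it was 0 without each array in turn. In set 2 it was 2 and became 1 with the 6 arrays alone, with quantile normalisation and with the limit of 1.5-fold, and 3 with genes above the median of gene means, and it ran from 1 to 3 without single arrays. In set 4 it was 2 and ran from 1 to 2 without single arrays. In 2-g v.s. 1-g it was 1 and became 2 with genes above the median of gene means, with centring, with the intensity trend and with the limit of 1.5-fold, and it ran from 1 to 2 without single arrays, where Cxcl9 joined Ccl3 without μ-g replicate 2, 1-g replicate 1 or control replicate 3. In the F test it was 1 and became 3 with genes above the median and 2 with the intensity trend, and it ran from 1 to 2 without single arrays, where Cxcl9 joined without 1-g replicate 1 or control replicate 3.

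With the replicate number as a block the count was 4 in set 1 (Cxcl1, Cxcl2, Cxcl3 and Ccl9, beside 4.7% of all genes), 6 in set 2, 1 in set 3 (Ccl9), 6 in 2-g v.s. 1-g and 7 in the F test, and 3 in set 4. In set 1, where the numbers do not pair the samples by the rule used, it also called Mmp2, Adam17, Arrb1, Il6 and Csf1r of the other lists. The cause of these shifts was not tested. With 3 arrays a group an exact test of 2 groups cannot give a two-sided p below 0.10, and low clusters, the receptors among them, have a compressed range.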

Other observations

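Clusters that carry several symbols were outside the comparisons. The 4 clusters of the Ccl21 genes, ligands of Ccr7, lay between 6.20 and 6.40 on all 12 arrays, and the 3 clusters of the Ccl27 genes, ligands of Ccr10, between 6.70 and 7.35. Of the 2 members with several clusters of their own, Ccl19 had 5. The 2 clusters of Ccl25 ranked the groups differently: the cluster used averaged 7.47 in μ-g, 7.63 in 1-g, 7.51 in 2-g and 7.63 in control cells, and the other averaged 7.67, 7.54, 7.34 and 7.48 in the same groups.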
